A study of Mus musculus with 24 samples.

Results

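Knockdown of Ctbp2 was set directly against knockdown of its paralog Ctbp1 in inflammatory macrophages. The 6 libraries were chosen by their labels, out of 24 in the series: 3 of bone marrow-derived macrophages (BMDMs) given Ctbp2 siRNA and 3 given Ctbp1 siRNA, all treated with 100 ng/ml lipopolysaccharide (LPS, an outer membrane molecule of Gram-negative bacteria sensed through TLR4) for 4 h. The cells came from male C57BL6/N mice of 6 to 12 weeks and were differentiated in medium conditioned by L929 cells, a source of macrophage colony-stimulating factor. Beside them stand the same siRNA groups after vehicle (PBS) and control siRNA groups after vehicle or LPS, with 3 libraries in each of the 6 BMDM groups, numbered 1, 3 and 4. The labels give polyadenylated RNA and an unstranded mRNA kit but also mention depletion of ribosomal RNA, so RNA selection is uncertain, which bears on the shares of mitochondrial and other transcripts. No group is untransfected, so all of the groups share siRNA delivery. The replicates are described as biological, with no word on separate mice or cultures, so p-values measure the spread between these libraries, which may be technical in part. Each knockdown is represented by its siRNA label alone, so loss of the target and any other action of that siRNA cannot be told apart.

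CtBP1 and CtBP2 are closely related transcriptional co-repressors. They bind sequence-specific DNA-binding factors through a short peptide motif in the partner and bring histone deacetylases, the histone demethylase LSD1 and histone methyltransferases to promoters and enhancers. Both also bind NAD(H), which ties their assembly to the metabolic state of the cell. In macrophages, LPS acts through TLR4 to activate NF-kB, AP-1 and interferon regulatory factors, which switch on cytokine, chemokine and feedback genes, while many genes of the resting state go down. The comparison asks how that state differs when one paralog rather than the other is reduced.

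The 6 libraries resembled each other closely. Each had 11548 to 11741 genes at 1 TPM (a measure of transcript share in a library) or more, and the lowest correlation between replicates of a group was 0.987 to 0.989 on the log2 scale. Sequencing depth is unknown, since TPM keeps none. The macrophage genes Adgre1 (F4/80), Csf1r and Cd68 were abundant, at 1547 ± 109 and 1525 ± 128 TPM for Adgre1 with Ctbp1 and Ctbp2 siRNA (SD, n = 3 each). Neutrophil markers summed to 113 to 179.6 TPM with Ctbp1 siRNA and 126 to 224 TPM with Ctbp2 siRNA, ranges that overlap. The lymphocyte, stromal, mast cell and red cell lists each summed to at most 8.30 TPM in any of these libraries. Of the dendritic cell markers Bst2 and Itgax, which macrophages also express, were the abundant ones, and that list summed to 415 to 455 and 480 to 513 TPM with Ctbp1 and Ctbp2 siRNA, which do not overlap. Mitochondrially encoded transcripts made up 4.44 to 4.51% of TPM with Ctbp1 siRNA and 4.10 to 4.23% with Ctbp2 siRNA. The part of either measure in the results was not tested. In bulk RNA, a change in the number of cells of a kind and a change in RNA per cell cannot be told apart. One library outside the comparison, control siRNA in LPS replicate 4, stood apart from its group: over genes that LPS induced in control cells its median was −0.15 on the log2 scale relative to the 6 compared libraries, against 0.037 and 0.063 for the other control LPS libraries. It shares the estimate of spread, and counts without it are given beside many of the lists.

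Both siRNAs lowered their own target and left the paralog near its control level. Ctbp1 was at 56.0, 48.5 and 48.1 TPM with Ctbp1 siRNA and 112, 117 and 114 TPM with Ctbp2 siRNA, beside 117, 119.9 and 131 TPM with control siRNA. That is a 2.23-fold difference between the knockdowns (log2 difference 1.15 ± 0.065, adjusted p = 1.56e-08), with no overlap between groups. Ctbp2 was at 41.2, 42.2 and 44.8 TPM with Ctbp1 siRNA and 13.8, 10.4 and 12.3 TPM with Ctbp2 siRNA, beside 37.4, 36.9 and 40.3 TPM with control siRNA. Ctbp2 thus stood at 0.299 of its level in the Ctbp1 siRNA libraries (log2 difference −1.74 ± 0.087, adjusted p = 4.81e-09). Against control siRNA in LPS, the paralog differed by 0.16 on the log2 scale for Ctbp2 under Ctbp1 siRNA (adjusted p = 0.669) and by −0.10 for Ctbp1 under Ctbp2 siRNA (adjusted p = 0.411). For Ctbp2, each Ctbp1 siRNA library nevertheless lay above each control siRNA library. Of 22 measured members of a list of CtBP partner and co-repressor genes, which includes Hdac1, Kdm1a (LSD1), Rcor1, Ehmt2 and Zeb2, these 2 targets were the members called, and the list median was −0.02. Without control LPS replicate 4, described above, 3 members including Ctbp2 were lower, beside 864 of all 7918 genes tested.

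**Figure D1:**
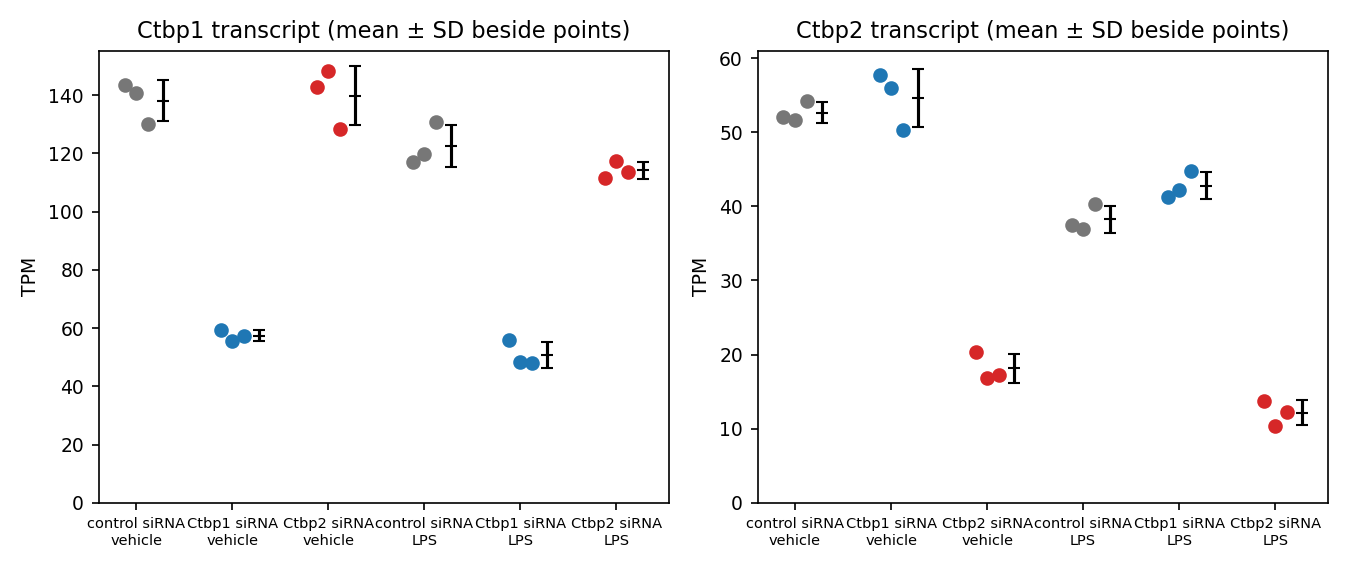
TPM of Ctbp1 (left) and Ctbp2 (right) in each of the 18 BMDM libraries by siRNA and treatment, with the mean and SD (n = 3) beside each group. The Ctbp1 siRNA LPS libraries lie between 48.1 and 56.0 TPM of Ctbp1, and the Ctbp2 siRNA LPS libraries between 10.4 and 13.8 TPM of Ctbp2, below every other LPS library in each case.

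Across the transcriptome, levels with Ctbp2 siRNA were higher than with Ctbp1 siRNA for a small set of genes, inflammatory cytokines among them. On the TPM scale they were slightly lower for a broader set, which was the smaller set under another scaling described below. The test covered 7918 genes whose level averaged 10 TPM or more, and 538 (6.79%) were called, that is, had a Benjamini-Hochberg adjusted p under 0.05 in limma: 104 (1.31%) were higher and 434 (5.48%) lower with Ctbp2 siRNA. Most differences were small. The median size among called genes was 0.31 upward and −0.27 downward on the log2 scale, and 12 and 13 of them reached 1.5-fold. A 2-fold difference was reached by Ctbp1, Csf2, Cav1 and Il12b upward and by Ctbp2, Cd28 and the predicted genes Gm4617 and Gm37416 downward, the last 3 named here after their values were seen. At the level of single libraries, in TPM without further scaling, the groups did not overlap for 456 genes higher (5.76%) and 1839 genes lower (23.2%) with Ctbp2 siRNA. Nearly all called genes were among them, 103 of the 104 higher and 430 of the 434 lower, so lack of overlap adds little to a call.

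The split between higher and lower depended on scaling. TPM fixes the total, and the median gene was −0.066 with Ctbp2 siRNA. With libraries scaled by median of ratios, the median gene was 0.020, and of 7889 genes tested 221 (2.8%) were higher and 108 (1.37%) lower. The 10 genes that gained most in TPM, among them Fth1, Tnf and the chemokines Cxcl2 and Ccl3, made up 8.63 to 8.86% of all TPM with Ctbp1 siRNA and 9.85 to 10.3% with Ctbp2 siRNA. All 104 genes called higher were called in the same direction under both scalings, whereas 108 of the 434 called lower were. Individual libraries mattered too: 404 genes were called without Ctbp1 siRNA replicate 1, 213 without replicate 3 and 166 without replicate 4, and 162, 323 and 340 without Ctbp2 siRNA replicates 1, 3 and 4. Leaving out control siRNA LPS replicate 4 gave 1066, and of the 7918 genes 200 were then higher and 864 lower. A total of 22 higher and 33 lower genes kept their call and direction in all 17 alternatives planned, among them Hspa1b, Mt2, Ier2, Egr2, Junb, Pdia3, Ifitm3 and Slc25a5 on the higher side and Ptma, Cyria, Lrp1, Calm3, Idh2, Hadhb, Hsph1 and P2rx4 on the lower.

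**Figure D2:**
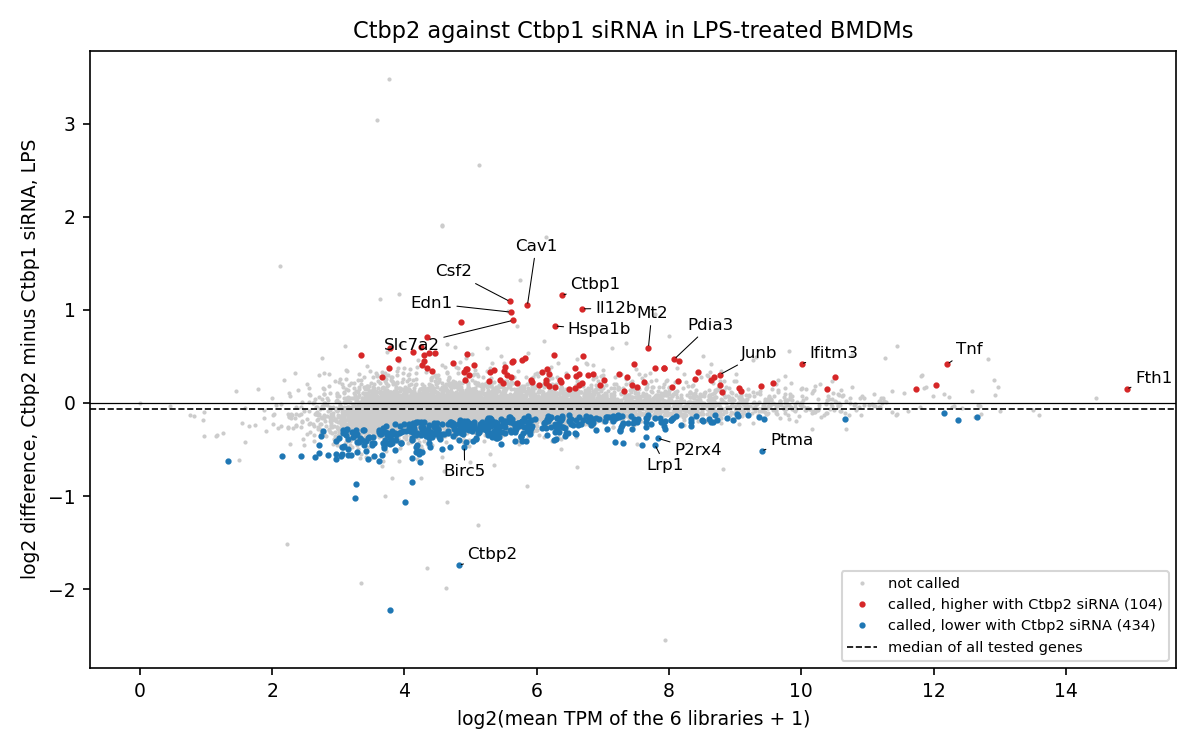
Each point is 1 of 7918 genes, with its mean level in the 6 libraries on the x axis (log2 of TPM + 1) and the log2 difference of Ctbp2 minus Ctbp1 siRNA in LPS on the y axis. Red marks the 104 genes called higher, blue the 434 called lower, and the dashed line is the median of all tested genes at −0.066.

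Among cytokines, 3 of 15 measured genes were called, all higher with Ctbp2 siRNA: Csf2, Il12b and Tnf. The share called higher over all genes was 1.31%. Csf2 encodes GM-CSF, a growth factor for myeloid cells, and was at 24.0, 41.6 and 23.8 TPM with Ctbp1 siRNA and 53.5, 90.9 and 49.9 TPM with Ctbp2 siRNA (2.13-fold, log2 difference 1.09 ± 0.31, adjusted p = 0.0435). Each Ctbp2 siRNA library exceeded each Ctbp1 siRNA library, although replicate 3 was the highest of both groups. Il12b, the p40 subunit shared by IL-12 and IL-23, was at 62.7, 71.8 and 67.0 TPM with Ctbp1 siRNA and 125, 166 and 122 TPM with Ctbp2 siRNA (2.02-fold, log2 difference 1.01 ± 0.27, adjusted p = 0.0359). Tnf, a first-line inflammatory cytokine and a far more abundant transcript, was at 4041, 4081 and 4042 TPM with Ctbp1 siRNA and 5498, 5519.9 and 5234 TPM with Ctbp2 siRNA (1.34-fold, log2 difference 0.42 ± 0.11, adjusted p = 0.037). The Ctbp1 siRNA libraries lay close together and well below all Ctbp2 siRNA libraries. Control siRNA gave 4782, 4982 and 3179 TPM for Tnf, with replicates 1 and 3 between the knockdown groups and replicate 4 below both. The calls of Il12b and Tnf were lost when any single library of the 6 was left out (adjusted p 0.0569 to 0.102 for Il12b and 0.0626 to 0.112 for Tnf), and that of Csf2 in each case except without Ctbp1 siRNA replicate 3 (up to 0.141). Without control LPS replicate 4 the adjusted p was 1.03e-04 for Il12b and 4.05e-05 for Tnf. With the 6 compared libraries fitted alone it was 0.0107, 0.00346 and, for Csf2, 0.138.

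The other cytokines had estimates in the same direction without passing the test. Of the 15, 14 had a positive difference, beside 2251 of all 7918 genes, and the list median was 0.36 against −0.066 for all genes. The groups did not overlap for 9, all higher with Ctbp2 siRNA, beside 5.76% of all genes. Il1b, the abundant pyrogenic cytokine, was at 2023, 2336 and 1808 TPM with Ctbp1 siRNA and 2837, 3385 and 2423 TPM with Ctbp2 siRNA (0.48, adjusted p = 0.258), and Il6, which drives the acute-phase response, at 109.8, 120.1 and 105 TPM with Ctbp1 siRNA and 171, 185 and 153 TPM with Ctbp2 siRNA (0.59, adjusted p = 0.187). The groups did not overlap for either gene. Il6 and Il18 were chosen after their values were seen. Ebi3, a subunit of IL-27, differed by 0.12 (adjusted p = 0.481). Il18 was the member with a negative estimate (−0.24, adjusted p = 0.151). Without control LPS replicate 4, 9 of the 15 were called higher, and in the fit of the 6 libraries alone 5 were. Of all 7918 genes, 200 and 67 were higher in these fits.

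Chemokines, which recruit neutrophils and monocytes, gave the same picture at very high transcript levels. None of 16 measured genes was called by limma under either scaling, while 15 had a positive estimate and the list median was 0.29. Cxcl2, a neutrophil attractant, was at 6099, 6286 and 5839 TPM with Ctbp1 siRNA and 8974, 8637 and 7737 TPM with Ctbp2 siRNA (0.47, adjusted p = 0.113). Cxcl1, chosen after its values were seen, was at 2331, 2230 and 2048 TPM with Ctbp1 siRNA and 3475, 3518 and 3093 TPM with Ctbp2 siRNA (0.61, adjusted p = 0.128). For both genes every Ctbp2 siRNA library lay above every Ctbp1 siRNA library. Ccl3 (0.25, adjusted p = 0.261) had overlapping groups, and Ccl9 (0.09, adjusted p = 0.458) differed little. Summed over the list, chemokines made up 27797 to 31847 TPM with Ctbp1 siRNA and 34141 to 39382 TPM with Ctbp2 siRNA, and cytokines 7631 to 8426 and 9874 to 11556 TPM, with no overlap in either case. Without control LPS replicate 4, 6 chemokines were called higher, and with the 6 libraries alone 3 were. The counts over all 7918 genes were 200 and 67.

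Immediate early genes, the transcription factors and regulators switched on first by a stimulus, included the firmer calls among LPS-responsive genes. Of 21 measured, 3 were called and all were higher with Ctbp2 siRNA, beside 1.31% called higher over all genes. Ier2 was at 43.8, 50.1 and 44.4 TPM with Ctbp1 siRNA and 66.9, 66.7 and 60.3 TPM with Ctbp2 siRNA (log2 difference 0.48 ± 0.083, adjusted p = 0.00491). Egr2, a zinc finger factor, was at 58.4, 57.2 and 60.8 TPM with Ctbp1 siRNA and 70.3, 72.3 and 81.2 TPM with Ctbp2 siRNA (log2 difference 0.34 ± 0.060, adjusted p = 0.00564). Junb, an AP-1 subunit, was at 379, 402 and 389 TPM with Ctbp1 siRNA and 486, 495 and 466 TPM with Ctbp2 siRNA (log2 difference 0.30 ± 0.053, adjusted p = 0.00507). The groups did not overlap for any of them, and all kept their call through every leave-one-out fit, with adjusted p-values of at most 0.0264. Against control siRNA in LPS, Ctbp2 siRNA was higher for Ier2 (0.61, adjusted p = 9.14e-04), Egr2 (0.56, 1.12e-04) and Junb (0.30, 0.00787), whereas Ctbp1 siRNA did not pass the test for any of these (adjusted p = 0.742, 0.305 and 0.985). The more abundant Klf6 (0.13, adjusted p = 0.24) and Jund (0.10, adjusted p = 0.121) did not pass in the direct comparison. The list median was 0.13, with 14 of 21 estimates positive. Without control LPS replicate 4, 4 members were higher and 1 lower, beside 200 and 864 of all 7918 genes.

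NF-kB regulators and feedback genes had 3 of 30 members higher and 1 lower, beside 1.31% higher and 5.48% lower over all genes. Zfp36 encodes tristetraprolin, which promotes decay of cytokine mRNAs, and was at 305, 309 and 305 TPM with Ctbp1 siRNA and 355, 355 and 389 TPM with Ctbp2 siRNA (log2 difference 0.26 ± 0.057, adjusted p = 0.0158). Zc3h12a encodes Regnase-1, an RNase acting on many of the same mRNAs, and differed by 0.28 (adjusted p = 0.021). Marcksl1 was higher (0.28, adjusted p = 0.034) and Cyld, a deubiquitinase that restrains NF-kB, lower (−0.21, adjusted p = 0.036), though Cyld lost its call under median-of-ratios scaling (adjusted p = 0.267). All 4 lost their call without at least 1 of the 6 libraries: Zfp36 without Ctbp1 or Ctbp2 siRNA replicate 4, Zc3h12a without either group's replicate 4, Ctbp1 siRNA replicate 3 or Ctbp2 siRNA replicate 1, Marcksl1 without Ctbp1 siRNA replicates 1 or 3 or Ctbp2 siRNA replicates 1 or 4, and Cyld without any one of them. Tnfaip2 (0.11, adjusted p = 0.237) and Icam1 (0.09, adjusted p = 0.475), the abundant members, did not pass. The list median was 0.10, with 25 of 30 estimates positive. Leaving out control LPS replicate 4, 10 members were higher and 1 lower, and with the 6 libraries alone 6 were higher, against 5 under median-of-ratios scaling. All 7918 genes gave 200 higher and 864 lower without that replicate, and 67 higher with the 6 libraries alone. In the TLR pathway itself 3 of 28 genes were higher, the receptor Tlr4 (0.36, adjusted p = 0.0331) and the kinases Map3k8 (0.25, adjusted p = 0.0428) and Ikbkb (0.24, adjusted p = 0.0392), and the list median was 0.0007. Each of these 3 lost its call without at least 5 of the 6 libraries in turn, while 6 of the 28 were higher without control LPS replicate 4.

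**Figure D3:**
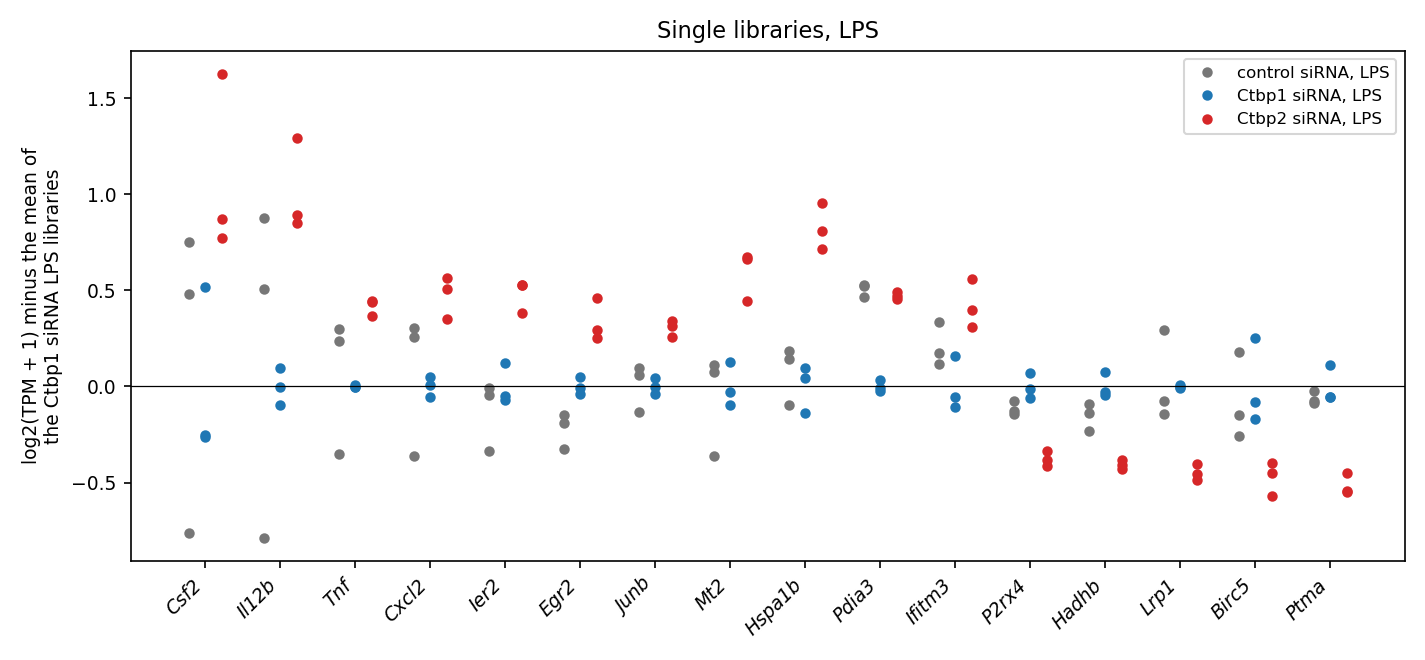
Values of 16 genes in each LPS library, as log2(TPM + 1) minus the mean of the Ctbp1 siRNA LPS libraries, for control (grey), Ctbp1 (blue) and Ctbp2 (red) siRNA. The red points lie above the blue ones from Csf2 to Ifitm3 and below them from P2rx4 to Ptma. For Pdia3 the grey points lie with the red, and 1 grey point of Csf2, Il12b, Tnf and Cxcl2 lies far below the other 2.

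Other inducible genes were among the largest differences. Edn1, which encodes the vasoconstrictor peptide endothelin-1, was at 32.4, 39.4 and 23.9 TPM with Ctbp1 siRNA and 64.9, 77.5 and 48.3 TPM with Ctbp2 siRNA (log2 difference 0.98 ± 0.27, adjusted p = 0.0421). Cav1, the caveolar coat protein caveolin-1, was at 49.1, 26.2 and 36.7 TPM with Ctbp1 siRNA and 94.6, 70.1 and 65.9 TPM with Ctbp2 siRNA (log2 difference 1.05 ± 0.24, adjusted p = 0.019). Slc7a2, the arginine transporter that feeds nitric oxide synthesis, was at 40.4, 28.5 and 33.6 TPM with Ctbp1 siRNA and 70.7, 58.1 and 61.8 TPM with Ctbp2 siRNA (log2 difference 0.89 ± 0.18, adjusted p = 0.0126). All 3 genes were higher by about the same factor. Their groups did not overlap, which the rule for naming the largest changes required. In control siRNA cells their means went from 0.0155, 1.11 and 1.67 TPM in vehicle to 36.9, 44.7 and 38.8 TPM in LPS. The small GTPase gene Rnd1 (0.86, adjusted p = 0.0117) was also higher. Calls were lost for Edn1 without any library except Ctbp2 siRNA replicate 4, for Cav1 without Ctbp1 siRNA replicates 3 or 4 or Ctbp2 siRNA replicate 1, for Slc7a2 without Ctbp1 siRNA replicate 3 or Ctbp2 siRNA replicate 1, and for Rnd1 without Ctbp1 siRNA replicate 4 or Ctbp2 siRNA replicate 1.

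Mt2 and Hspa1b, both induced by stress, kept their call in every leave-one-out fit. Mt2, a metallothionein that binds zinc and copper, was at 178, 159.6 and 153 TPM with Ctbp1 siRNA and 261, 259 and 222 TPM with Ctbp2 siRNA, beside 172, 176 and 127 TPM with control siRNA (log2 difference 0.59 ± 0.12, adjusted p = 0.00934). Hspa1b, an inducible HSP70 chaperone, was at 56.8, 49.8 and 58.7 TPM with Ctbp1 siRNA and 97.0, 91.0 and 107 TPM with Ctbp2 siRNA, beside 60.8, 62.6 and 51.4 TPM with control siRNA (log2 difference 0.83 ± 0.091, adjusted p = 1.40e-04). Both passed the test against control siRNA in LPS with Ctbp2 siRNA (Mt2 adjusted p = 0.00687 and Hspa1b 3.84e-04, against 0.939 and 0.887 for Ctbp1 siRNA). Hspa1a, a near-identical neighbour, was higher too (0.54, adjusted p = 0.0143), but reads of this pair can be split between them, so the value of each is uncertain. Its call was lost without Ctbp1 siRNA replicate 3 or Ctbp2 siRNA replicate 4. Hsph1, an HSP110 co-chaperone of the same list, was lower (−0.40, adjusted p = 0.00516), so the heat shock list had 2 of 15 members higher and 1 lower with a median of −0.08. All genes together had 1.31% higher and 5.48% lower.

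Antioxidant genes controlled by NRF2 had 4 of 20 members higher and 1 lower, with a median of 0.11. For this and the next lists, the shares over all genes were 1.31% higher and 5.48% lower. Gclm, the modifier subunit of the enzyme that limits glutathione synthesis, was higher (0.33, adjusted p = 0.0138). The autophagy receptor gene Sqstm1 (0.20, adjusted p = 0.015) and thioredoxin Txn1 (0.16, adjusted p = 0.0471) were slightly higher. Fth1, the ferritin heavy chain that stores iron, was at 30482, 28021 and 29746 TPM with Ctbp1 siRNA and 34382, 30809 and 32824 TPM with Ctbp2 siRNA (0.15, adjusted p = 0.0411), the largest difference of any tested gene in TPM, a mean of 3255 TPM. Tkt, a pentose phosphate enzyme, was lower (−0.25, adjusted p = 0.00144) and kept its call in all alternatives. Glycolysis and hypoxia genes had 4 of 21 members higher and none lower: the lactate exporter Slc16a3 (0.31, adjusted p = 0.00458), Hk2 (0.27, adjusted p = 0.0429), the hypoxia factor Hif1a (0.22, adjusted p = 0.0144) and Pgk1 (0.11, adjusted p = 0.0387). The list median was 0.05. Without control LPS replicate 4, 4 NRF2 genes were higher and 1 lower, and 5 glycolysis and hypoxia genes were higher. All 7918 genes then had 200 higher and 864 lower. With the 6 libraries alone, none of the NRF2 genes and 1 of the glycolysis and hypoxia genes were higher, and under median-of-ratios scaling 5 and 8 were. Of these 8 higher genes, Slc16a3 kept its call in every leave-one-out fit and Hif1a in all except that without Ctbp2 siRNA replicate 3, while each of the other 6 lost it in 3 or more of those fits. Gdf15, a stress-induced cytokine and the 1 gene called of 14 in the integrated stress response list, was higher (0.51, adjusted p = 0.0285) and lost its call in all leave-one-out fits except that without Ctbp1 siRNA replicate 3. The pro-apoptotic gene Bcl2l11 was higher (0.25, adjusted p = 0.011), and Casp8 (−0.31, adjusted p = 0.0051) and Bid (−0.26, adjusted p = 0.0359) were lower, the last losing its call without any one library.

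The firmest decreases were in genes of no single group. Ptma, which encodes the acidic nuclear protein prothymosin alpha, was at 765, 857 and 764 TPM with Ctbp1 siRNA and 580.3, 543 and 545 TPM with Ctbp2 siRNA, beside 753, 749 and 781 TPM with control siRNA (log2 difference −0.51 ± 0.045, adjusted p = 5.69e-06), but it has close copies in the genome that could share reads. Lrp1, an endocytic scavenger receptor, was at 253, 256 and 254 TPM with Ctbp1 siRNA and 185, 181 and 192 TPM with Ctbp2 siRNA (log2 difference −0.45 ± 0.077, adjusted p = 0.00458). P2rx4, an ATP-gated ion channel, was at 269, 245 and 253 TPM with Ctbp1 siRNA and 202, 191 and 196 TPM with Ctbp2 siRNA (log2 difference −0.38 ± 0.048, adjusted p = 3.98e-04). The groups were clearly apart for all 3 genes, and each kept its call in all 17 alternatives. The mitochondrial fatty acid oxidation gene Hadhb (−0.41, adjusted p = 3.98e-04) and the cholesterol ester hydrolase gene Nceh1 (−0.41, adjusted p = 0.00371) were lower as well. So were Idh2, a mitochondrial isocitrate dehydrogenase (−0.41, adjusted p = 0.0077), Calm3, a calmodulin (−0.42, adjusted p = 0.00111), the kinase gene Cdk18 (−0.43, adjusted p = 0.00371) and Cyria, a regulator of RAC1 signalling (−0.46, adjusted p = 3.36e-04).

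Of 30 cell cycle and replication genes 4 were lower with Ctbp2 siRNA and none higher: Birc5, Cdk1, Top2a and Pcna. All genes together had 5.48% lower and 1.31% higher. The list median was −0.21 and 29 of 30 estimates were negative. Most genes had negative estimates too: the median of all 7918 was −0.066, with 2251 positive. Birc5 (survivin), which acts in mitosis, was at 29.9, 40.3 and 31.8 TPM with Ctbp1 siRNA and 24.4, 25.3 and 22.4 TPM with Ctbp2 siRNA (log2 difference −0.47 ± 0.12, adjusted p = 0.0295). The mitotic kinase Cdk1 (−0.34, adjusted p = 0.0424), the topoisomerase Top2a (−0.31, adjusted p = 0.0485) and the replication clamp Pcna (−0.13, adjusted p = 0.0373) were lower by smaller amounts. Cenpa, the centromeric histone, stood outside the list and was lower too (−0.48, adjusted p = 0.0158). None of the 4 list members was called under median-of-ratios scaling (adjusted p = 0.059, 0.105, 0.11 and 0.532), where the list median was −0.12 and none of the 30 passed, and each was lost without at least 4 of the 6 libraries in turn. With the 6 libraries alone none of the 30 was called, and without control LPS replicate 4, 9 were lower. Of all 7918 genes, 68 were lower with the 6 libraries alone and 864 without that replicate. Cenpa was called under that scaling (adjusted p = 0.0301) and lost without Ctbp1 siRNA replicates 3 or 4 or Ctbp2 siRNA replicate 3.

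Lysosomal and lipid-handling genes, part of the housekeeping of resting macrophages, had small differences. Among all 7918 genes the median was −0.066, 2251 had a positive estimate, 5.48% were called lower and 1.31% higher. The lipid list median was −0.11 and that of the respiratory list −0.08. Of 33 lysosome and V-ATPase genes 4 were lower and 1 higher, with 7 estimates positive and a median of −0.10. The proton pump subunit Atp6v0d2 was at 202, 171 and 199 TPM with Ctbp1 siRNA and 156, 150.4 and 161 TPM with Ctbp2 siRNA (−0.28, adjusted p = 0.0261) and the glycoprotein Gpnmb at 5606, 5552 and 5724 TPM with Ctbp1 siRNA and 4804, 4974 and 5052 TPM with Ctbp2 siRNA (−0.19, adjusted p = 0.0277). Atp6v0d1, a paralogous pump subunit, was higher (0.13, adjusted p = 0.0475). Of 22 cholesterol, LXR and fatty acid genes, the receptor gene Nr1h3 (LXR alpha, −0.32, adjusted p = 0.0359), the fatty acid carrier Fabp4 (−0.30, adjusted p = 0.0247) and the lipase Lpl (−0.11, adjusted p = 0.0371) were lower, and Mylip, an LXR target that degrades the LDL receptor, higher (0.33, adjusted p = 0.0477). Nuclear-encoded respiratory genes had 3 of 25 members lower, Cox6c (−0.24, adjusted p = 0.0374), Ndufa4 (−0.19, adjusted p = 0.0367) and Sdha (−0.18, adjusted p = 0.0328), and 1 higher, the ADP/ATP carrier Slc25a5. All Ctbp2 siRNA libraries lay below all Ctbp1 siRNA libraries for 19 of 33 lysosomal, 6 of 22 lipid and 11 of 25 respiratory genes, beside 23.2% of all genes. They all lay above for 2, 0 and 1, beside 5.76%. A total of 11 lysosomal, 5 lipid and 6 respiratory genes were lower without control LPS replicate 4, and with the 6 libraries alone 1, 0 and 0. Of all 7918 genes, 864 were lower without that replicate and 68 with the 6 libraries alone. Under median-of-ratios scaling 15 of 33, 9 of 22 and 13 of 25 estimates were positive, with medians of −0.016, −0.027 and 0.003. Under it none of the genes called lower in these 3 lists passed, and all the genes named lower here lost their call without at least 2 of the 6 libraries in turn.

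**Figure D4:**
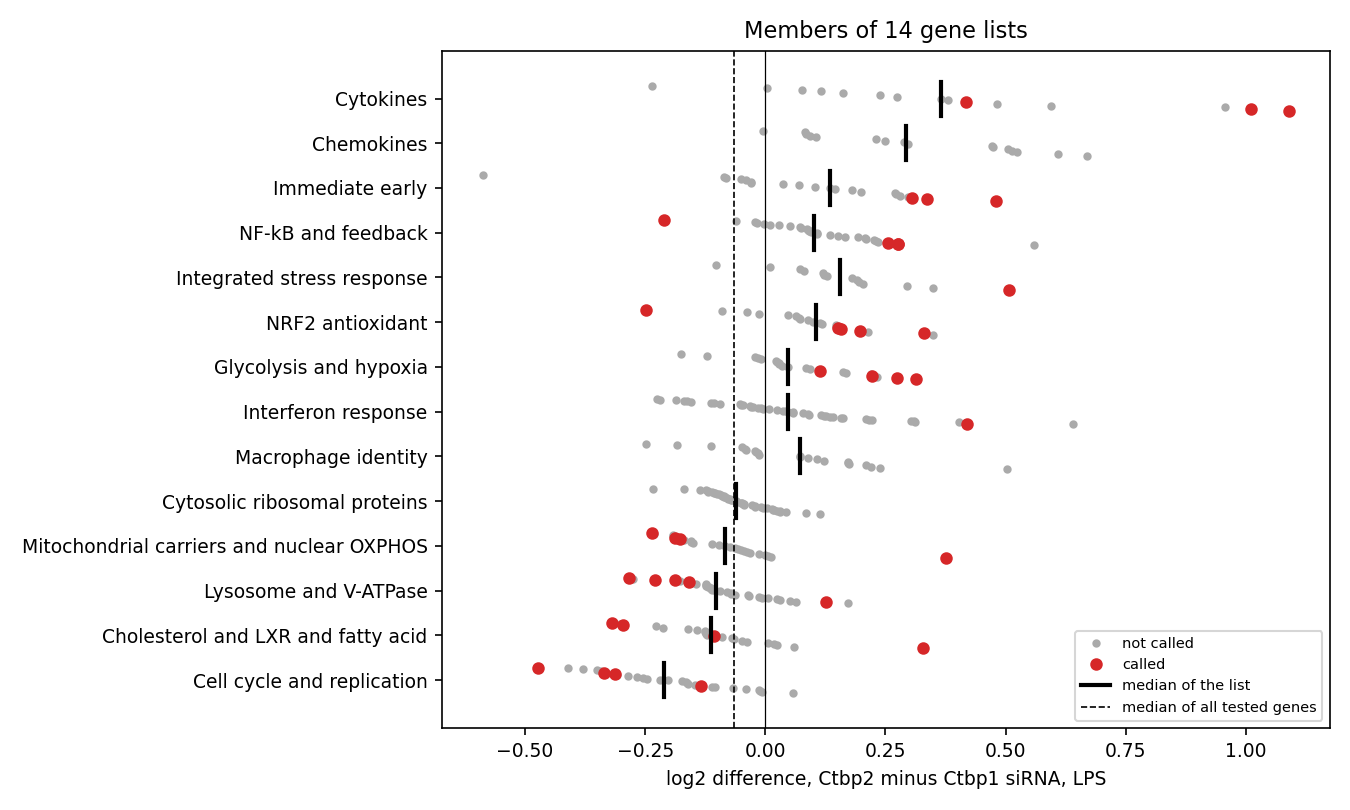
Log2 difference of Ctbp2 minus Ctbp1 siRNA in LPS for each measured member of 14 gene lists, in red where called. The thick bar is the list median, the dashed line the median of all tested genes, and the lists were chosen with earlier results of these data known. Cytokine and chemokine medians lie at 0.36 and 0.29, and the cell cycle median at −0.21.

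Lists of secretory and membrane genes had shares of lower genes that were mostly near the 5.48% over all genes. Of 22 chaperones and disulfide isomerases of the endoplasmic reticulum, Pdia3 was higher and 3 were lower: Ssr1 (−0.31, adjusted p = 0.0387), Dnajb11 (−0.24, adjusted p = 0.0077) and Pdia4 (−0.22, adjusted p = 0.0411). Tmx3, a membrane-bound disulfide isomerase among the largest decreases, was lower too (−0.41, adjusted p = 0.015). Of 32 Rab and Arf family GTPases, which direct vesicle traffic, Rab8b (0.31, adjusted p = 0.003) and Rab14 (0.18, adjusted p = 0.0106) were higher, and Arl8a (−0.20, adjusted p = 0.00879), which positions lysosomes, and Rab2a (−0.18, adjusted p = 0.0135) were lower. All 4 kept their call in every leave-one-out fit, but Arl8a and Rab2a lost it under median-of-ratios scaling (adjusted p = 0.151 and 0.276), as did the 3 lower chaperone genes (0.136, 0.0715 and 0.157). Among 25 adhesion genes the hyaluronan receptor Cd44 was higher (0.28, adjusted p = 0.0181) and the tetraspanin Cd9 lower (−0.18, adjusted p = 0.0369), and among 22 cytokine receptors Il4ra was higher (0.30, adjusted p = 0.0438) and Ifngr1, the interferon gamma receptor chain, lower (−0.16, adjusted p = 0.0248). Cd9 and Ifngr1 were not called under median-of-ratios scaling (adjusted p = 0.436 and 0.306). Each of these 4 lost its call in 3 or more leave-one-out fits. When control LPS replicate 4 was left out, 5 of the chaperone genes were lower, 4 Rab and Arf genes were higher and 4 lower, and 4 adhesion genes were higher and 2 lower. All 7918 genes then had 200 higher and 864 lower. The MHC class I gene H2-Q7, which has close copies that could share reads, was higher (0.35, adjusted p = 0.0297), as was Gch1, which makes the cofactor of nitric oxide synthase (0.20, adjusted p = 0.0487), and both lost their call without any one of the 6 libraries.

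Other lists had few calls or none. No gene was called among cytosolic ribosomal proteins (44 measured, median −0.06), mitochondrially encoded genes (13, −0.09), macrophage identity genes (22, 0.07), Fc receptors and complement (19, 0.07), MHC class II and co-stimulation (10, −0.04), nucleic acid sensors (23, −0.02) and the RNA interference machinery (10, −0.03). Under median-of-ratios scaling 5 of the Fc receptor and complement genes, 2 of the macrophage identity genes and 1 ribosomal protein gene were higher. Leaving out control LPS replicate 4, calls appeared for 3 ribosomal protein genes and 1 mitochondrially encoded gene (lower), for 2 Fc receptor and complement genes (higher), for macrophage identity genes (1 higher, 2 lower) and for nucleic acid sensors (1 higher, 1 lower). In that fit 200 of all 7918 genes were higher and 864 lower. Over all 7918 genes limma gave an unadjusted p under 0.05 for 2079. Interferon response genes had 1 of 45 members called, Ifitm3, a restriction factor for enveloped viruses, at 813, 976 and 843 TPM with Ctbp1 siRNA and 1082, 1288 and 1151 TPM with Ctbp2 siRNA (log2 difference 0.42 ± 0.075, adjusted p = 0.00564). Without control LPS replicate 4, 5 of the 45 were higher and 3 lower, with the 6 libraries alone 4 were higher, and under median-of-ratios scaling 3 were. Of all 7918 genes, 67 were higher with the 6 libraries alone and 221 under that scaling. Isg15 (0.31, adjusted p = 0.181) and Cxcl10 (adjusted p = 0.994), the abundant members, did not pass. The interferon list median was 0.05 in LPS and 0.32 in vehicle, where 6 members were higher with Ctbp2 siRNA. Among all 7918 genes, 104 were higher in LPS and 41 in vehicle.

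Part of the difference between the knockdowns was also seen without LPS. In the separate vehicle libraries, 75 of 7918 genes (0.947%) were called, 41 higher and 34 lower with Ctbp2 siRNA. Of these, 46 were also called in LPS, 61.3% of the vehicle calls and 8.55% of the LPS calls, and all 46 had the same direction, 19 higher and 27 lower. Of the 104 genes called higher in LPS 85 had a positive difference in vehicle, and of the 434 called lower 377 had a negative one. Most genes had negative differences in vehicle too: 2995 of all 7918 were positive, and the median was −0.027. Across all 7918 genes, which are not independent replicates, Pearson's r between the differences in LPS and in vehicle was 0.238.

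Beside control siRNA, some of these genes had the Ctbp1 siRNA libraries apart and others the Ctbp2 siRNA libraries. The 2 comparisons with control share the control libraries, so their values are set side by side only. Pdia3, which forms disulfide bonds in newly made glycoproteins, was at 232, 222 and 225 TPM with Ctbp1 siRNA and 313, 319 and 310.1 TPM with Ctbp2 siRNA, beside 312, 326 and 325 TPM with control siRNA (log2 difference 0.47 ± 0.034, adjusted p = 4.08e-07). The Ctbp1 siRNA libraries were the ones apart: Pdia3 differed from control by −0.50 with Ctbp1 siRNA (adjusted p = 2.26e-07) and by −0.03 with Ctbp2 siRNA (adjusted p = 0.641). In vehicle the Ctbp2 minus Ctbp1 difference was 0.51 (adjusted p = 1.34e-07). Slc25a5 had the same pattern, at 213, 215 and 204 TPM with Ctbp1 siRNA and 281, 287 and 253 TPM with Ctbp2 siRNA, beside 287, 269 and 281 TPM with control siRNA (log2 difference 0.38 ± 0.048, adjusted p = 3.98e-04, and 0.42 in vehicle). Rab8b, a GTPase of membrane traffic, also had Ctbp1 siRNA below control (−0.26, adjusted p = 0.0419). For Ptma it was Ctbp2 siRNA that differed from control (−0.45, adjusted p = 7.40e-05, against 0.774 for Ctbp1 siRNA), and likewise for P2rx4 (−0.26, 0.00838, against 0.565) and Hspa1b. Over all genes, 12 (0.152%) were called with Ctbp1 siRNA and 251 (3.17%) with Ctbp2 siRNA against the same control LPS libraries, 2 and 61 of them higher. Without control LPS replicate 4, 133 were called with Ctbp1 siRNA, 96 of them higher, and 161 with Ctbp2 siRNA, 58 of them higher, so the counts and, for Ctbp1 siRNA, the balance of directions rest on that library. The calls named here against control were kept without it: the adjusted p was 2.64e-06 for Pdia3, 0.00171 for Slc25a5 and 0.0104 for Rab8b with Ctbp1 siRNA, and at most 0.0294 for Ptma, P2rx4, Hspa1b, Mt2, Ier2, Egr2 and Junb with Ctbp2 siRNA.

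**Figure D5:**
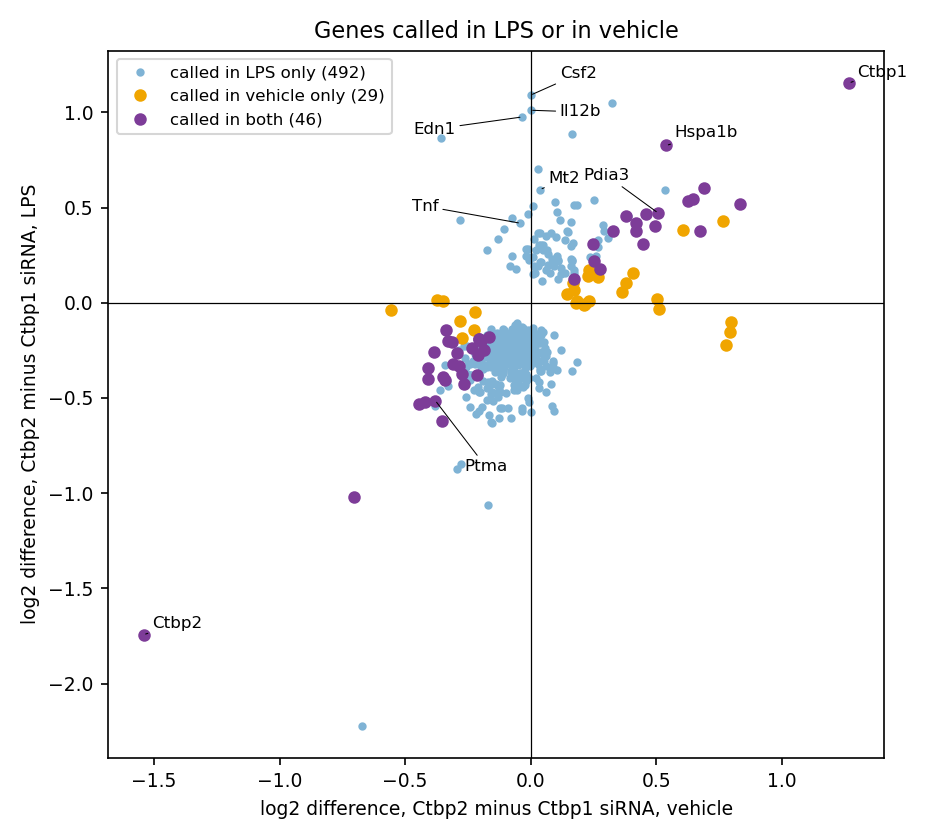
Genes called in LPS, in vehicle or in both, with the log2 difference of Ctbp2 minus Ctbp1 siRNA in vehicle on the x axis and in LPS on the y axis. The 46 genes called in both (purple) lie in the quadrants of equal sign, Pdia3 among them. Csf2, Il12b and Edn1 had almost no transcript in vehicle, so their position at 0 on the x axis follows from the scale.

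The cytokine genes called in LPS had far less transcript in vehicle than in LPS, or none. Tnf averaged 35.9 ± 1.54 and 34.9 ± 2.30 TPM there with Ctbp1 and Ctbp2 siRNA (SD, n = 3), and Csf2 and Il12b were listed at 0 in all 6 of these libraries. Whether the difference between knockdowns changed with LPS was tested by an interaction term, and it was called for 0 of 7918 genes (0%) by limma, with 731 at an unadjusted p under 0.05. For Csf2 and Il12b the term only restates the difference in LPS, so it is not given. For Tnf the interaction was 0.46 (95% interval 0.12 to 0.79, adjusted p = 0.427). Junb (0.26, 0.10 to 0.42) and Mt2 (0.56, 0.21 to 0.90) had intervals above 0 without passing the adjusted threshold. For Pdia3 the interaction was −0.04 (−0.14 to 0.07). Without control siRNA LPS replicate 4, 12 genes passed, among them Tnf (adjusted p = 0.0135), Rnd1 (0.0334) and Il6 (0.0456) with a positive interaction, and Ifit2 (0.0456), an interferon-induced gene, with a negative one. Il6 and Ifit2 are named after their values were seen.

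Genes grouped by their response to LPS in control siRNA cells, libraries that enter neither knockdown group, differed in direction. LPS induced 564 genes (7.12%) and repressed 769 (9.71%) at least 2-fold with an adjusted p under 0.05. Of the induced genes 30 were higher and 6 lower with Ctbp2 than with Ctbp1 siRNA (5.32% and 1.06%, against 1.31% and 5.48% of all genes), 398 had a positive estimate, and their median difference was 0.077. Of the repressed genes 4 were higher and 85 lower (0.520% and 11.1%), 129 had a positive estimate, and the median was −0.15. Among genes induced at least 4-fold, 267 in all, the median was 0.14, with 18 higher and 1 lower. In vehicle the medians of the induced and repressed classes were 0.010 and −0.024. By library, the median deviation of the induced class from the mean of the 6 libraries was −0.019, −0.055 and −0.028 with Ctbp1 siRNA and 0.054, 0.018 and 0.040 with Ctbp2 siRNA. The repressed class gave 0.058, 0.062 and 0.11 with Ctbp1 siRNA and −0.13, −0.070 and −0.033 with Ctbp2 siRNA. The knockdown groups did not overlap in either class. They did not overlap over all tested genes either, with 0.022, 0.032 and 0.041 for Ctbp1 siRNA and −0.052, −0.032 and −0.012 for Ctbp2 siRNA, in the same direction as the repressed class. Under median-of-ratios scaling the medians were 0.14 (802 genes) and −0.091 (413 genes). The control libraries that define the classes gave deviations of 0.037, 0.063 and −0.15 for the induced class and −0.048, −0.068 and 0.23 for the repressed class. An exact permutation test over 3 against 3 libraries cannot give a p below 0.1, so none is given for these medians.

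Start-site sequence was examined for motifs of LPS-responsive factors, and 4 upstream windows are shown because their genes were called higher in LPS and carry a match. The windows come from RefSeq on GRCm38.p6, run from 250 bases upstream to the base before the start, and read 5′ to 3′ along the gene. Capitals mark matches on either strand to 4 short motifs. The TATA box was searched as TATAAA, and the AP-1 site of Fos and Jun dimers as TGANTCA. The core of NF-kB sites was searched as GGG followed, after any 3 bases, by TTCC. The interferon-stimulated response element was searched as GAAA followed, after any 2 bases, by a second copy of these letters.
Tnf, chr17:35202008-35202257, minus strand: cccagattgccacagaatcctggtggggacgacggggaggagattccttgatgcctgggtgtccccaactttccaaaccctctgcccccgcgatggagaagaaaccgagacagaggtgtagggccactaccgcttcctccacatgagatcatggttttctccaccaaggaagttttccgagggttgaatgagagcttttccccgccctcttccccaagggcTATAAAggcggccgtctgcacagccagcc
Mt2, chr8:94172368-94172617, plus strand: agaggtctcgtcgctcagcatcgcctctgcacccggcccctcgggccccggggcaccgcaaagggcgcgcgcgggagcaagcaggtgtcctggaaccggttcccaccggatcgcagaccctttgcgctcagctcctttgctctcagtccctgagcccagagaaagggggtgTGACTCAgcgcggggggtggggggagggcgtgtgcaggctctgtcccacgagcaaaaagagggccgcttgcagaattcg
Ifitm3, chr7:141010745-141010994, minus strand: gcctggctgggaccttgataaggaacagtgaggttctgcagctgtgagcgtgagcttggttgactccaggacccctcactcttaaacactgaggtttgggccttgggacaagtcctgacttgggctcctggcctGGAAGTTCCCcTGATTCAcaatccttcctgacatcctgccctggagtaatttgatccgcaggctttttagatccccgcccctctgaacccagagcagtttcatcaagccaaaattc
Edn1, chr13:42301226-42301475, plus strand: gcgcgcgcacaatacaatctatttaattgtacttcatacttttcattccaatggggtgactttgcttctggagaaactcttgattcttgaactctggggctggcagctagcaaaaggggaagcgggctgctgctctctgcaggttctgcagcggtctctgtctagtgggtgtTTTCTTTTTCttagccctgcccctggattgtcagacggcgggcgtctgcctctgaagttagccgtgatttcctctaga
Tnf carries a TATA box from 29 to 24 bases upstream of the start. In Mt2 an AP-1 match lies 79 to 73 bases upstream. Ifitm3 has an NF-kB match on the opposite strand at 116 to 107 and an AP-1 match at 105 to 99, 1 base apart. Edn1 has an interferon-type match on the opposite strand at 78 to 69. The 300-base windows of Csf2 and Il12b hold none of the 4 motifs, which says only that these letters are not there.

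Over the full windows, 250 bases before to 50 after the start, 88 of the 104 genes called higher and 358 of the 434 called lower matched an entry by symbol. A TATA box was present for 16 of the 88 higher (18.2%) and 21 of the 358 lower genes (5.87%), beside 8.62% of the 6263 tested genes that matched and 13.6% of all 32851 promoter entries. The NF-kB core was present for 9.09% of the higher and 8.38% of the lower genes, beside 7.49% of tested genes and 12.1% of LPS-induced ones (5.56% of all entries). AP-1 matches were present for 9.09% and 5.03%, beside 6.13% of tested genes (7.81% of all entries), and the interferon-type motif for 6.82% and 4.19%, beside 4.36% (3.44%). Genes with several entries count as holding a motif if any entry does. These shares are descriptions without a test, and the TATA motif was added after the sequences were seen.

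The authors' deposited table holds fold changes of each knockdown against control siRNA, and subtracting them gives the same contrast on their own normalization. The difference of the log2 fold changes in the authors' deposited table had the same sign as here for all 104 genes called higher and all 434 called lower, beside 5761 of all 7918 tested genes. Both come from the same libraries. Its median over the 7918 genes was 0.018, with 0.40 for the genes called higher and −0.20 for those called lower. It was 0.50 for Tnf, 1.12 for Il12b and 0.56 for Pdia3 in the authors' deposited table.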

How the data were processed

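RNA-seq of 18 BMDM libraries (6 groups of 3) was used; J774 libraries of the series were not analysed here. The column headers name the deposited values gene-level scaled TPM on mm39. They were treated as TPM, as the 6 compared libraries sum to 999887 to 999942 each. Salmon 1.9.0, DESeq2 1.44.0 and R 4.4.1 are named in the submitters' processing notes. TPM keeps no depth, so counting error cannot be given. The authors' deposited table also holds log2 fold changes and p-values of each knockdown against control siRNA; its log2 fold changes were used in 1 comparison, and its p-values were not used.

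Genes averaging 10 TPM or more across the 18 libraries (7918 of 22996) were tested on log2(TPM + 1) with limma 3.58.1 in R 4.3.3, with 1 coefficient per group, a trended and robust variance, and Benjamini-Hochberg adjustment over all tested genes. Fold changes are on the log2(TPM + 1) scale, which understates those of low genes. Positive values mean higher with Ctbp2 siRNA, and ± after a log2 difference is its standard error. The fit was tested on simulated data. The genes and lists, and the choice of libraries, were made with earlier results of these data known; named genes are both targets, the 15 largest called changes in each direction that average 20 TPM or more without overlap, up to 4 called members of each list, and the 3 most abundant members of 5 lists. Alternatives changed the scaling (median of ratios), filter, pseudocount, variance model, libraries fitted, replicate block and each replicate. Promoters were from RefSeq (GRCm38.p6), another build than that of the TPM values. siRNA sequences are not given in the sources used here. Some items are not reported here.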

Additional observations from a re-analysis of the deposited data

How the results depend on the processing

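The number of genes called between Ctbp2 and Ctbp1 siRNA in LPS (538) stayed within 1.5 times under a plain variance model, other pseudocounts, a minimum of 1 TPM and, added after seeing the data, median-of-ratios scaling leaving out control siRNA LPS replicate 4 (649). The count was 329 with median-of-ratios scaling, 227 with no filter, 827 with only the 12 Ctbp1 and Ctbp2 siRNA libraries, and 138 with only the 6 libraries compared. Without 1 replicate it ranged from 162 to 1066. The vehicle count (75) was 36 with only the libraries compared and 141 with median-of-ratios scaling without control siRNA LPS replicate 4, and ranged from 35 to 157 without 1 replicate. The interaction, called for 0 genes, was called for 4 with no filter and 20 with that added alternative, and for 0 to 12 without 1 replicate. The median over LPS-induced genes was 0.14 for genes induced at least 4-fold and 0.14 with median-of-ratios scaling, and that over repressed genes −0.091 with that scaling. The causes were not tested.

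With a replicate block, 914 genes were called in LPS and 160 in vehicle, and with only the libraries compared the blocked fit called 708 in LPS and 13 for the interaction. Whether the replicate numbers pair the libraries is not known. Deviations of same-numbered libraries correlated at 0.09, 0.28 and 0.01 in LPS and −0.03, 0.04 and 0.11 in vehicle. Of 12 libraries, 5 correlated best with their own number. Low correlations over all genes cannot exclude pairing. Csf2 and Fth1 had the same order of replicates in both knockdown groups, and Cxcl2 did not. The main fit takes no account of pairing.

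Of 94 genes chosen by the naming rule, 83 were called, 30 of these kept their call in each fit without 1 of the 6 libraries, 25 under all 17 other settings, and none changed direction in any. Since TPM keeps no depth, sampling error at low levels cannot be separated from other spread.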

Other observations

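Of 45 interferon response genes, 6 were higher with Ctbp2 than with Ctbp1 siRNA in vehicle, and 1 of the 45 in LPS. Among all 7918 tested genes, 41 were higher in vehicle and 104 (1.31%) in LPS. The LPS count of these 45 was 5 higher and 3 lower without control LPS replicate 4, 4 higher with the 6 libraries alone and 3 higher under median-of-ratios scaling. All 7918 genes gave 200 higher and 864 lower, 67 higher, and 221 higher in the same order. The interferon genes below are described because they were called in vehicle, a choice made after their values were seen. Ifit2, which encodes an antiviral RNA-binding protein, was at 32.7, 27.9 and 35.6 TPM with Ctbp1 siRNA and 52.4, 52.1 and 62.6 TPM with Ctbp2 siRNA in vehicle, beside 27.3, 27.1 and 36.1 TPM with control siRNA (0.78 ± 0.14 on the log2 scale, SE, adjusted p = 0.00942 in limma). The Ctbp2 siRNA libraries were the ones apart. Ifit3 (0.79, adjusted p = 0.0222), Xaf1 (0.51, 0.00316) and Rtp4 (0.41, 0.0201) were higher in the same libraries. In LPS the difference was −0.22 for Ifit2 (adjusted p = 0.32), −0.16 for Ifit3 (0.564) and −0.03 for Xaf1 (0.829). The interaction for Ifit2, its difference in LPS minus that in vehicle, did not pass over all libraries (adjusted p = 0.295), nor did that for Xaf1 (0.295). They passed without control LPS replicate 4 (0.0456 for both) and in the fit with a replicate block and only the libraries compared (0.0232 and 0.0321). Ifitm3 was called in both and had a difference of 0.42 in vehicle and in LPS.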
